A study of Mus musculus with 32 samples.

Results

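The 33 genes described here make cholesterol and fatty acids or set how much of them a cell makes. They were listed by their place in the pathway and taken from the deposited array values, 1 probe set (a group of probes summarised as 1 value) per gene, the brightest over all 32 arrays among those that carry a single gene symbol. Such a probe set was found for 32 of the 33 genes, out of 19938 genes of the whole series, and Acat2 was not analysed here. The 32 genes fell into 7 of the mevalonate route, 11 of the steps from squalene to sterol, 4 regulators, 1 sterol carrier, 6 of fatty acid synthesis and 3 targets of the liver X receptor (LXR).

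The study profiled 2 mouse B cell lymphoma lines, in culture and after they had been placed in the brain as a model of lymphoma of the central nervous system. The groups were cultured BAL17VII cells, a line the labels describe as derived from BAL17 (6 arrays), cultured BAL17 cells (6 arrays), and whole brains of BALB/c mice, 5 per group. The brains were taken 21 days after implantation of 500000 BAL17VII cells, 28 days after implantation of 500000 BAL17 cells, 21 days after implantation of 500000 BAL17 cells, and 28 days after an injection of PBS (phosphate-buffered saline). The hosts were wild type. The labels give neither the age and sex of the mice nor the origin of each line array (1 culture or several), so p-values measure the spread between these arrays only, which may be technical for the lines. There was no PBS group at day 21. BAL17 and BAL17VII are each 1 line, and a whole implanted brain holds RNA of the host and of the lymphoma together.

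Cells build cholesterol from acetyl-CoA through mevalonate and isoprenoids to squalene, which is folded into lanosterol and trimmed to cholesterol. When membranes run low in sterol, the carrier protein SCAP brings the SREBP transcription factors to the Golgi, where they are cut and freed to raise the genes of this route, of sterol carriers and of fatty acid synthesis. When sterol is plentiful, INSIG holds SCAP back, and oxysterols switch on LXR, which raises the cholesterol exporters. In the brain nearly all cholesterol is made locally, much of it by the oligodendrocytes that lay down myelin and by astrocytes.

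Values are log2 of the deposited intensity. Arrays of a group correlated at 0.979 to 0.994 over the 19938 genes, each with 1 probe set. The labelled types carried their markers: the mean of 11 measured B lineage genes was 8.90 in BAL17VII cells and 8.85 in BAL17 cells, and that of 10 myelin genes was 9.54 in PBS brains. BAL17VII brain 1 stood apart from the other BAL17VII brains. Its mean over the B lineage genes was 6.05, where the other 4 lay between 6.87 and 7.45 and the PBS brains between 5.92 and 6.20. Its mean over 9 cell division genes was 5.74, against 5.51 to 5.75 in PBS brains. Calls, counts and list means of BAL17VII brains are therefore also given without it.

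RefSeq promoters on GRCm38.p6 were found for 26 of the 33 genes. The 5 stretches below belong to 4 genes of cholesterol synthesis that lead the comparisons below and have an entry, and to Insig1, which takes part in the feedback. Each is the 250 bases before the annotated start, 5′ to 3′ on the gene's strand, with capitals on letters that match CACNCCAC, a pattern like the sterol regulatory element that SREBP proteins bind, or CCAAT, the box bound by NF-Y, on either strand.

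Hmgcs1, chr13:119690101-119690350, plus strand: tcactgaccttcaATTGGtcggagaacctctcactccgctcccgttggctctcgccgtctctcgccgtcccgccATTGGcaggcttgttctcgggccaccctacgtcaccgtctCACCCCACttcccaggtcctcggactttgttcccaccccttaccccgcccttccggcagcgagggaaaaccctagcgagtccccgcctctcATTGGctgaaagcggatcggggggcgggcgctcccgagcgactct
Idi1, chr13:8885356-8885605, plus strand: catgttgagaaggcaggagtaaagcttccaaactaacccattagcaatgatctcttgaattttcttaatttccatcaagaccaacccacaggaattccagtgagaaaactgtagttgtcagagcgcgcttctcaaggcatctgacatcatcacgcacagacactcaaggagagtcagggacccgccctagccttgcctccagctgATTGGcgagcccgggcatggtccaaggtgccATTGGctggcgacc
Msmo1, chr8:64733579-64733828, minus strand: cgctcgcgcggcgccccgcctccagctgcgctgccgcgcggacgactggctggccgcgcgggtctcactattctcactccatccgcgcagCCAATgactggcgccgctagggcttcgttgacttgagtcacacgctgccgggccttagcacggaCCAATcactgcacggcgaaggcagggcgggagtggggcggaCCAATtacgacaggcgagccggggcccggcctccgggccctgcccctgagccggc
Nsdhl, chrX:72918271-72918520, plus strand: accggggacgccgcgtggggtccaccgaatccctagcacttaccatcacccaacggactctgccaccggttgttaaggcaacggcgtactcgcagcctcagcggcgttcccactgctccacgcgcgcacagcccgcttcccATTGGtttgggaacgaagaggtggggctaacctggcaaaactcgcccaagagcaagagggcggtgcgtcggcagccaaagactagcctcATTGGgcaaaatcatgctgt
Insig1, chr5:28071162-28071411, plus strand: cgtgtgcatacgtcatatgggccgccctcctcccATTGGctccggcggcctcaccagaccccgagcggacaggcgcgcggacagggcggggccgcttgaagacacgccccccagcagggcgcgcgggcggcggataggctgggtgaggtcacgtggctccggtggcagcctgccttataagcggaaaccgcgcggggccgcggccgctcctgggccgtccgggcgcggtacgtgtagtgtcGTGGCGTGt

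Hmgcs1 held 1 CACNCCAC match, which began 136 bases before the start, and 3 CCAAT matches. Insig1 held its CACNCCAC match, read on the other strand as GTGGCGTG, 9 bases before the start, and 1 CCAAT match. Msmo1 held 3 CCAAT matches, and Idi1 and Nsdhl held 2 each. No CACNCCAC match was found in the windows printed for Idi1, Msmo1 and Nsdhl, which says nothing of sites elsewhere. Over the same 250 bases before the start, CACNCCAC was found in 3 of 32 entries of the members (9.38%) and in 5.29% of all 32851 promoters. CCAAT was found in 65.6% of the members' entries and in 33.8% of all promoters, and GGGCGG, the box bound by Sp1, in 71.9% and 32.7%, each on either strand. No matches of different patterns overlapped in the 5 stretches shown. These matches describe letters and are not measured binding.

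Across the 6 groups, BAL17 cells held the highest mean over the 32 genes. The mean log2 intensity of the 32 genes was 8.10 ± 0.09 in BAL17VII cells and 8.68 ± 0.02 in BAL17 cells (SD over 6 arrays each). In brains it was 8.24 ± 0.15 with BAL17VII at day 21, 7.97 ± 0.10 with BAL17 at day 28, 8.03 ± 0.12 with BAL17 at day 21, and 8.26 ± 0.12 with PBS (SD over 5 brains each). With BAL17VII brain 1 left out, the BAL17VII mean was 8.18 ± 0.08 over 4 brains, and that of the sterol-step genes was 8.13, of the mevalonate genes 7.92, of the fatty acid genes 9.01 and of the LXR targets 7.45. The mean was thus lower in BAL17VII cells than in BAL17 cells, and higher in BAL17VII brains than in BAL17 brains at day 21. The brain means are of host and lymphoma RNA together, and the order of these means was not tested. Every BAL17VII array in culture, at 7.98 to 8.24, lay below every BAL17 array, at 8.66 to 8.70. The day 21 brains overlapped, at 8.12 to 8.48 with BAL17VII and 7.93 to 8.23 with BAL17.

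The groups of genes are given in the order of the route. The 11 sterol-step genes averaged 7.92 in BAL17VII cells and 8.63 in BAL17 cells, and in brains 8.21 with BAL17VII at day 21, 7.79 with BAL17 at day 28, 7.82 with BAL17 at day 21 and 8.17 with PBS. The 7 mevalonate genes averaged 7.54 in BAL17VII cells and 8.22 in BAL17 cells, and in brains 7.98 with BAL17VII at day 21, 7.64 with BAL17 at day 28, 7.68 with BAL17 at day 21 and 7.94 with PBS. The 6 fatty acid genes differed in culture, at 9.0 in BAL17VII cells and 9.70 in BAL17 cells, and less in day 21 brains, at 9.07 with BAL17VII and 8.97 with BAL17. The mean of the 3 LXR targets ran the other way, at 7.86 in BAL17VII cells and 7.69 in BAL17 cells. At day 21 it was 7.44 in BAL17VII brains and 7.62 in BAL17 brains. Not every target moved, with differences of -0.05 for Abca1 in culture and -0.02 for Abcg1 in day 21 brains.

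**Figure D1:**
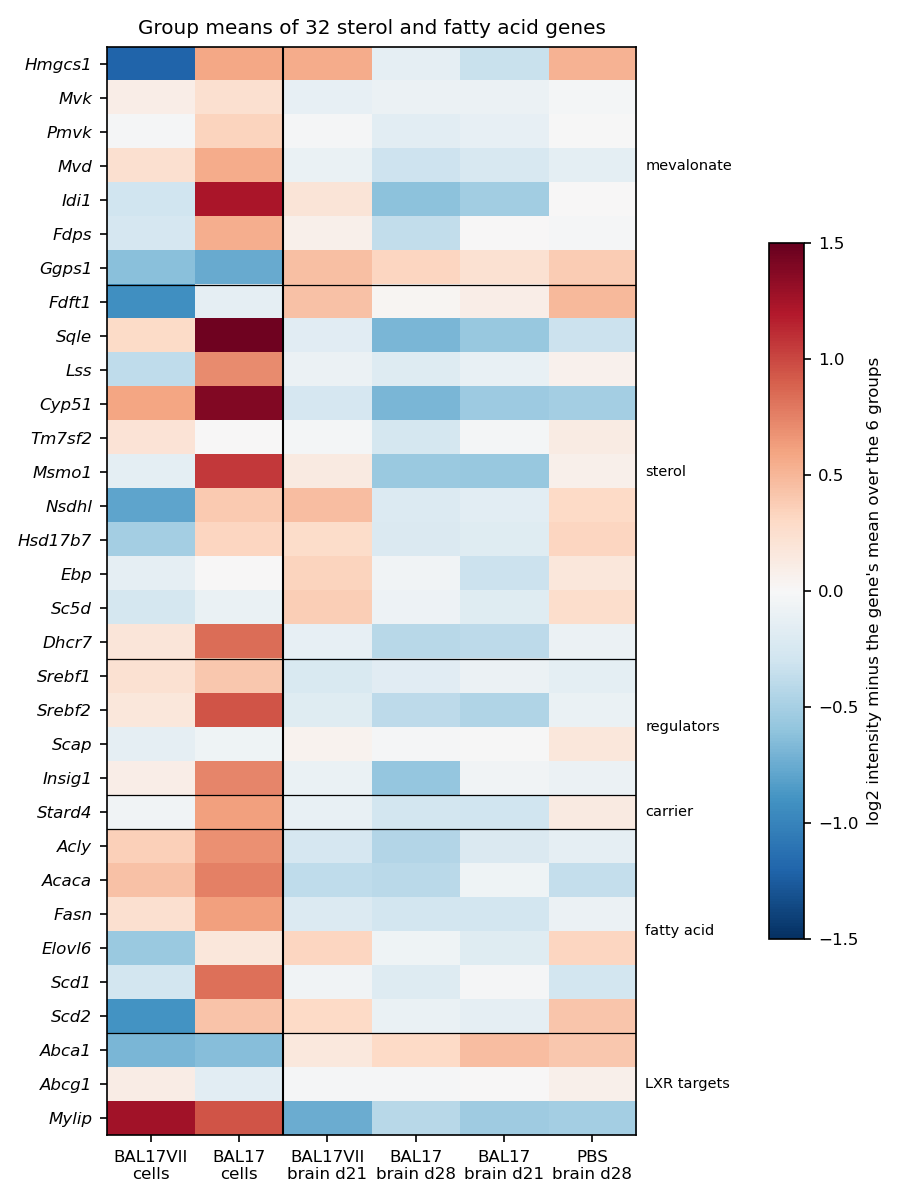
Group means of the 32 genes as log2 intensity minus the gene's own mean over the 6 groups, with genes in the order of the route and red for above and blue for below that mean. For most synthesis genes BAL17 cells are redder than BAL17VII cells. Among brains, Hmgcs1 averaged 9.64 with BAL17VII, 8.96 with BAL17 at day 28, 8.75 with BAL17 at day 21 and 9.61 with PBS.

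In culture, BAL17VII cells had lower levels of nearly the whole route than BAL17 cells. Of 32 genes, 24 were lower and 2 higher at an adjusted p under 0.05 (limma, Benjamini-Hochberg over 10717 genes). That is 75% and 6.25% of the members, against 14.5% and 17.3% of all genes tested. For 19 genes all 6 BAL17VII arrays lay below all 6 BAL17 arrays, as did 8.03% of all genes. The median difference was -0.65 over the members and 0.00 over all genes tested.

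At the head of the route stood Hmgcs1, the synthase that makes HMG-CoA from acetyl groups. Its 6 values ran from 7.69 to 7.98 with a median of 7.91 in BAL17VII cells, against 9.61 to 9.74 with a median of 9.65 in BAL17 cells. The gap between the groups was wide beside the spread within them. The difference was -1.78 ± 0.06 (SE), a ratio of 0.29, with an adjusted p of 5.55e-13. Idi1, the isomerase that supplies the second isoprene unit, had 7.67 to 8.0 with a median of 7.90 in BAL17VII cells, against 9.24 to 9.50 with a median of 9.36 in BAL17 cells. It differed by -1.53 ± 0.07 (adjusted p = 5.1e-11), and a second probe set of Idi1 gave -1.58. Fdps, which joins isoprene units to farnesyl diphosphate, differed by -0.80 ± 0.10, Pmvk by -0.36 ± 0.08 and Mvd by -0.32 ± 0.08, the last with overlapping arrays. Mvk, the first of the mevalonate kinases, at -0.14 ± 0.08, and Ggps1, which leads off to protein prenylation, at 0.13 ± 0.08, did not pass.

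Of the 11 sterol-step genes 9 were lower, and 8 of these without overlap. Msmo1, the oxidase that removes methyl groups from the sterol ring, had 9.03 to 9.32 with a median of 9.22 in BAL17VII cells, against 10.32 to 10.55 with a median of 10.39 in BAL17 cells. The difference was -1.21 ± 0.07 (adjusted p = 3e-10). Nsdhl, the dehydrogenase of the same demethylation, had 7.61 to 8.26 with a median of 7.94 in BAL17VII cells, against 9.02 to 9.17 with a median of 9.11 in BAL17 cells. It differed by -1.19 ± 0.10 (adjusted p = 5.97e-08), and the BAL17VII arrays varied more than the BAL17 arrays. Sqle, squalene epoxidase, an early rate-setting enzyme of the sterol branch, had 9.14 to 9.36 with a median of 9.30 in BAL17VII cells, against 10.38 to 10.50 with a median of 10.44 in BAL17 cells. It differed by -1.17 ± 0.06 (adjusted p = 7.78e-11).

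Lss, which closes the sterol rings, was lower by a similar margin (-1.10 ± 0.08), although its BAL17VII mean of 6.33 stood near the array medians of 6.35 to 6.54. Hsd17b7 (-0.83 ± 0.08), Cyp51, the lanosterol demethylase (-0.79 ± 0.06), Fdft1, squalene synthase (-0.78 ± 0.10), and Dhcr7, a last reductase (-0.67 ± 0.06), were lower as well. A second probe set of Fdft1 gave -1.10. Ebp, an isomerase of the late route, at -0.15 ± 0.13, and the reductase gene Tm7sf2, at 0.20 ± 0.09, did not pass. Sc5d, a late desaturase, was called at -0.16 ± 0.06 with overlapping arrays and an adjusted p of 0.0481, which lay between 0.0647 and 0.105 when any of 8 single arrays was left out. The call was also lost with no filter (0.116), after median centring (0.0527), with robust trended moderation (0.0673) and with all 32 arrays fitted together (0.176).

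Among the regulators, Srebf2, which encodes the SREBP that acts mainly on sterol genes, had 8.07 to 8.31 with a median of 8.29 in BAL17VII cells, against 8.97 to 9.10 with a median of 8.99 in BAL17 cells. The arrays did not overlap, and the difference was -0.78 ± 0.06 (adjusted p = 2.56e-08). Insig1, itself raised by SREBP and the brake on it, had 9.79 to 10.37 with a median of 9.98 in BAL17VII cells, against 10.54 to 10.83 with a median of 10.64 in BAL17 cells. It differed by -0.63 ± 0.08 (adjusted p = 2.1e-05). Srebf1, whose products act on fatty acid genes, had 7.29 to 7.51 with a median of 7.40 in BAL17VII cells, against 7.48 to 7.70 with a median of 7.57 in BAL17 cells. These overlapped, and the difference of -0.18 ± 0.06 had an adjusted p of 0.0347, which lay between 0.0522 and 0.0828 when any of 6 single arrays was left out. The call was also lost with no intensity filter (0.0897) or robust trended moderation (0.0639). Scap differed by -0.08 ± 0.06 and did not pass. Stard4, a carrier that moves cholesterol through the cytosol, differed by -0.68 ± 0.06 without overlap.

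All 6 fatty acid genes were lower in BAL17VII cells. Scd2, a desaturase that makes monounsaturated fatty acids, had 8.39 to 9.05 with a median of 8.50 in BAL17VII cells, against 9.80 to 10.07 with a median of 9.91 in BAL17 cells. It differed by -1.32 ± 0.10 (adjusted p = 1.8e-08). Its close relative Scd1 had 9.70 to 10.31 with a median of 9.95 in BAL17VII cells, against 10.96 to 11.19 with a median of 11.07 in BAL17 cells, a difference of -1.11 ± 0.09 (adjusted p = 3.31e-08). The 2 genes are paralogs, and whether probes of one also bind RNA of the other was not examined. Elovl6, which lengthens the product of fatty acid synthase, differed by -0.73 ± 0.07 without overlap.

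The genes that feed and run the synthase itself moved less. Fasn, fatty acid synthase, had 7.95 to 8.45 with a median of 8.16 in BAL17VII cells, against 8.41 to 8.58 with a median of 8.55 in BAL17 cells. One BAL17VII array lay above the lowest BAL17 array, and the difference was -0.37 ± 0.08 (adjusted p = 0.00174). Acaca, which makes malonyl-CoA, differed by -0.33 ± 0.05, and Acly, which makes cytosolic acetyl-CoA, by -0.33 ± 0.07.

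The LXR targets did not share this direction. Mylip, a ubiquitin ligase that limits the uptake of cholesterol, had 8.89 to 9.39 with a median of 9.05 in BAL17VII cells, against 8.54 to 8.93 with a median of 8.79 in BAL17 cells. The groups overlapped, and Mylip was higher by 0.31 ± 0.08 (adjusted p = 0.00832). Abcg1, an exporter of cholesterol, had 7.78 to 8.20 with a median of 7.97 in BAL17VII cells, against 7.46 to 7.88 with a median of 7.77 in BAL17 cells. It was higher by 0.27 ± 0.09 (adjusted p = 0.0267), and lost that call when BAL17VII array 1 or 2 or BAL17 array 4 or 6 was left out (adjusted p = 0.0605 to 0.0663) or no intensity filter was used (0.0691). Abca1, the other main exporter, had 6.25 to 6.80 with a median of 6.58 in BAL17VII cells, against 6.43 to 6.71 with a median of 6.58 in BAL17 cells, and its difference of -0.05 ± 0.09 did not pass.

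Cell division genes were lower in BAL17VII cells too: 8 of 9 passed as lower, with list means of 9.55 to 9.77 in BAL17VII cells and 10.18 to 10.34 in BAL17 cells. Over all genes tested in culture, 14.5% were lower and 17.3% higher. Of 10 measured macrophage genes, only 3 passed the intensity filter in culture, which the arrays of a single line can satisfy. All 3 were higher in BAL17VII cells, a count that this filter can favour. List means over the 10 genes were 6.69 in BAL17VII cells and 6.01 in BAL17 cells. The part of either list in the difference of the sterol genes was not tested.

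**Figure D2:**
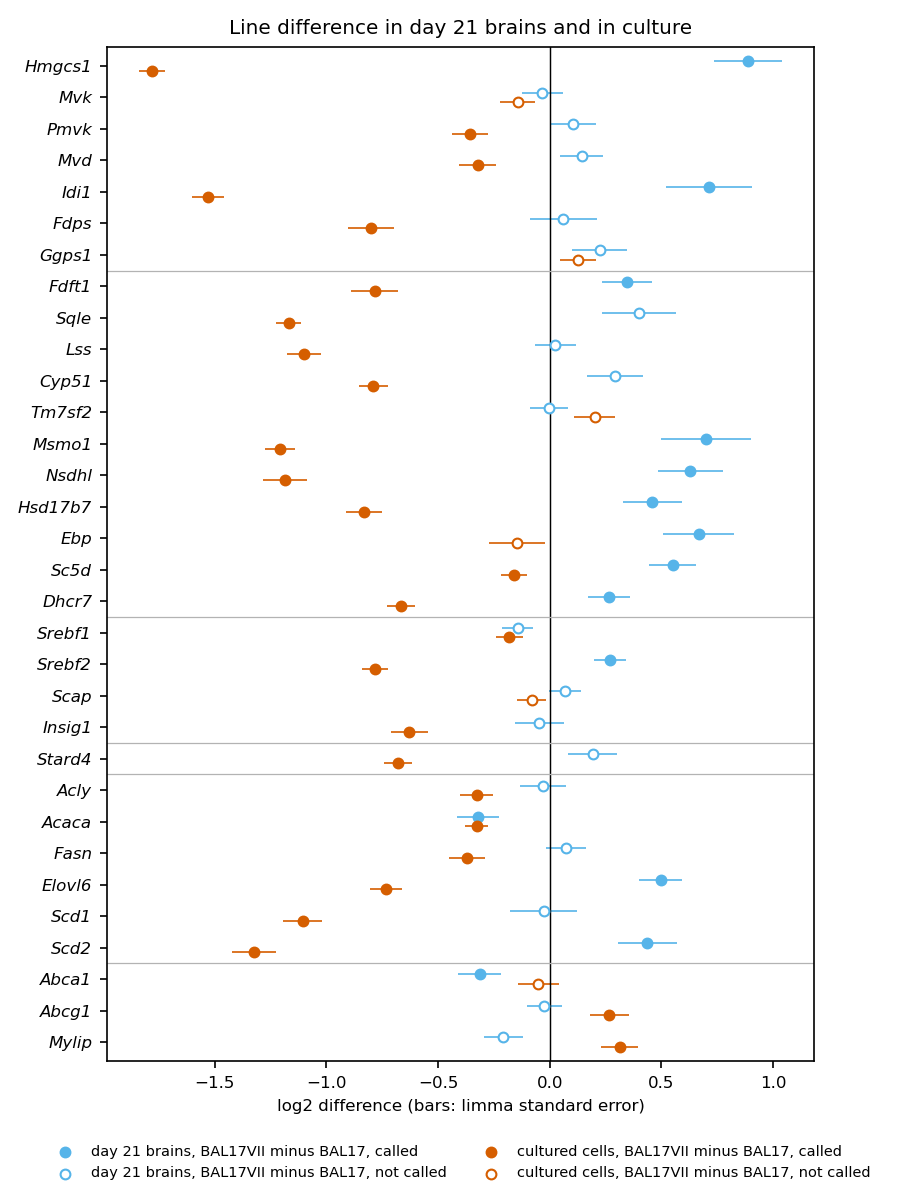
Difference of BAL17VII minus BAL17 for the 32 genes in day 21 brains (blue, upper point of each row) and in culture (orange, lower point), on the log2 scale with limma's standard error, filled where the gene was called. Most synthesis genes lie left of 0 in culture and at or right of 0 in brains, with 0.89 in brains and -1.78 in culture for Hmgcs1, while Acaca lies left of 0 in both.

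In whole brains at day 21, the only day with both lines, a part of the route was higher with BAL17VII than with BAL17. Of 32 genes, 12 were higher and 2 lower in BAL17VII brains than in BAL17 brains (limma over all 20 brains, 11965 genes tested). That is 37.5% and 6.25% of the members, against 17.3% and 6.82% of all genes tested. After each array was centred on its median, 12 members were higher and none lower, beside 2481 genes higher and 536 lower in all, against 2069 and 816 without it. For 6 genes all 5 BAL17VII brains lay above all 5 BAL17 brains, as did 6.62% of all genes tested. The median difference was 0.17 over the members and 0.07 over all genes. In whole brain, fewer cells of a type and less RNA per cell cannot be told apart.

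Hmgcs1 read 10.12, 9.44, 9.73, 9.41 and 9.50 in the 5 BAL17VII brains, against 8.52, 9.13, 8.74, 8.59 and 8.79 in the 5 BAL17 brains at day 21. Every BAL17VII brain lay above every BAL17 brain. The difference was 0.89 ± 0.15, a ratio of 1.85 (adjusted p = 0.000482), and 0.77 without BAL17VII brain 1 (adjusted p = 0.00143). Idi1 read 8.86, 8.10, 8.51, 7.99 and 8.23 in BAL17VII brains, against 7.37, 8.08, 7.70, 7.23 and 7.75 in BAL17 brains. One BAL17 brain, replicate 2, reached into the BAL17VII range. The difference was 0.71 ± 0.19 (adjusted p = 0.0118), and 0.58 without BAL17VII brain 1 (adjusted p = 0.0432). The other 5 mevalonate genes did not pass, with differences from -0.03 for Mvk to 0.22 for Ggps1.

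Of the sterol-step genes 7 of 11 were higher. Msmo1 read 9.96, 9.46, 9.56, 9.06 and 9.37 in BAL17VII brains, against 8.19, 9.47, 8.74, 8.49 and 9.03 in BAL17 brains. The groups overlapped through BAL17 brain 2. The difference of 0.70 ± 0.20 (adjusted p = 0.0155) missed the threshold without BAL17VII brain 1 (0.58, adjusted p = 0.0544) or without BAL17 brain 1 (0.55, adjusted p = 0.053). Ebp read 7.29, 6.59, 6.95, 7.03 and 6.92 in BAL17VII brains, against 6.08, 6.60, 6.44, 5.90 and 6.43 in BAL17 brains. Only BAL17VII brain 2 and BAL17 brain 2 crossed, by a small margin. The difference was 0.67 ± 0.16 (adjusted p = 0.00486), and 0.58 without BAL17VII brain 1 (adjusted p = 0.0182), with the BAL17 mean of 6.29 near the array medians.

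Nsdhl read 9.43, 9.19, 9.35, 8.83 and 9.08 in BAL17VII brains, against 8.45, 8.97, 8.63, 8.30 and 8.38 in BAL17 brains. BAL17 brain 2 again lay inside the BAL17VII range. The difference was 0.63 ± 0.14 (adjusted p = 0.00388), and 0.57 without BAL17VII brain 1 (adjusted p = 0.0141). Hsd17b7, a reductase of the same demethylation, read 8.67, 7.94, 8.08, 8.12 and 7.92 in BAL17VII brains, against 7.73, 7.92, 7.66, 7.56 and 7.56 in BAL17 brains. The lowest BAL17VII brain stood just above the highest BAL17 brain. The difference was 0.46 ± 0.13 (adjusted p = 0.0164), and 0.33 without BAL17VII brain 1 (adjusted p = 0.0578).

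Sc5d was higher by 0.55 ± 0.10 without overlap (adjusted p = 0.0011), and by 0.45 without BAL17VII brain 1 (adjusted p = 0.00313). Fdft1 (0.35 ± 0.11) and Dhcr7 (0.27 ± 0.09, no overlap) were called, and each lost its call without any of several single brains, with adjusted p of up to 0.108 and 0.135. Both were also lost with the 2 groups alone (0.076 and 0.0524), and Dhcr7 with no intensity filter (0.0691). Sqle read 9.29, 8.64, 8.88, 8.62 and 8.63 in BAL17VII brains, against 8.02, 8.94, 8.36, 8.11 and 8.63 in BAL17 brains. The groups overlapped, and the difference of 0.40 ± 0.17 did not pass (adjusted p = 0.0842), though it did without BAL17 brain 2 (0.53, adjusted p = 0.0154) and in a fit of all 32 arrays (adjusted p = 0.0376). Cyp51 (0.29 ± 0.13) also passed without BAL17 brain 2 (0.39, adjusted p = 0.0201), while Lss (0.02 ± 0.09) and Tm7sf2 (0.00 ± 0.08) showed almost no difference.

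Of the regulators, Srebf2 alone was called. It read 8.02, 7.74, 7.87, 7.90 and 7.93 in BAL17VII brains, against 7.62, 7.72, 7.55, 7.66 and 7.57 in BAL17 brains. The groups did not overlap, and the difference was 0.27 ± 0.07 (adjusted p = 0.011), and 0.24 without BAL17VII brain 1 (adjusted p = 0.04). Insig1 read 10.18, 9.57, 9.86, 9.70 and 9.80 in BAL17VII brains, against 9.88, 10.02, 9.74, 9.80 and 9.89 in BAL17 brains. The groups overlapped fully (-0.05 ± 0.11). Srebf1 read 7.05, 6.97, 7.0, 6.93 and 6.78 in BAL17VII brains, against 7.14, 7.04, 7.09, 7.17 and 7.01 in BAL17 brains, a difference of -0.14 ± 0.07 (adjusted p = 0.136) with overlap. Scap (0.07 ± 0.07) and the carrier gene Stard4 (0.19 ± 0.11) did not pass, Stard4 passing without BAL17 brain 2 (0.28, adjusted p = 0.0378).

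The fatty acid genes divided. Elovl6 was higher by 0.50 ± 0.10 without overlap (adjusted p = 0.00127), and by 0.41 without BAL17VII brain 1 (adjusted p = 0.00383). Scd2 read 10.20, 9.47, 9.87, 9.64 and 9.79 in BAL17VII brains, against 8.99, 9.75, 9.50, 9.18 and 9.36 in BAL17 brains. BAL17 brains 2 and 3 lay inside the BAL17VII range. The difference was 0.44 ± 0.13 (adjusted p = 0.0196), and 0.34 without BAL17VII brain 1 (adjusted p = 0.0723); it was also lost without BAL17 brain 1 (0.0661) or 4 (0.0561) and with the 2 groups alone (0.0696). Scd1 read 10.56, 10.10, 10.31, 9.86 and 10.14 in BAL17VII brains, against 10.34, 10.33, 9.93, 10.07 and 10.43 in BAL17 brains. The BAL17 values lay within the BAL17VII range (-0.03 ± 0.15).

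Fasn read 7.71, 7.49, 7.60, 7.91 and 7.82 in BAL17VII brains, against 7.64, 7.39, 7.60, 7.65 and 7.89 in BAL17 brains, and did not pass (0.07 ± 0.09). Those groups overlapped. Acaca read 8.85, 8.26, 8.61, 8.61 and 8.64 in BAL17VII brains, against 8.96, 8.65, 9.05, 8.86 and 9.07 in BAL17 brains. BAL17 brain 2 alone lay within the BAL17VII range. Acaca was the one synthesis gene called lower (-0.32 ± 0.09, adjusted p = 0.0174), and a second probe set gave -0.42. It was -0.39 without BAL17VII brain 1 (adjusted p = 0.00826). The call was lost after median centring (adjusted p = 0.0643), without BAL17 brain 5 (0.0542) and with the 10 arrays of the 2 groups fitted alone (0.0738).

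Abca1 read 7.39, 7.11, 7.31, 7.49 and 7.52 in BAL17VII brains, against 7.70, 7.34, 7.93, 7.69 and 7.74 in BAL17 brains. Only BAL17 brain 2 lay within the BAL17VII range. It was lower, at -0.31 ± 0.10 (adjusted p = 0.0222), a call also lost after median centring (0.0613), with the 2 groups alone (0.0773) and without BAL17 brain 3 (0.0647), BAL17 brain 5 (0.0546) or BAL17VII brain 2 (0.0516). It was -0.32 without BAL17VII brain 1 (adjusted p = 0.0425). Mylip (-0.21 ± 0.09) and Abcg1 (-0.02 ± 0.08) did not pass.

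Without BAL17VII brain 1, the genes called higher were 7, namely Hmgcs1, Idi1, Nsdhl, Ebp, Sc5d, Srebf2 and Elovl6, and 2 were lower, Acaca and Abca1, beside 10.3% of all genes higher and 4.35% lower. Then 20 of 32 differences were positive, with a median of 0.12, where 22 were positive with all brains. Without BAL17 brain 2, which read highest of its group for many of these genes, 16 were higher. With the arrays of both groups fitted alone, 9 were higher and none lower. The number called lower ran from 0 to 3 as single brains were left out, with 0 without BAL17 brain 5, 1 without BAL17 brain 3 or BAL17VII brain 2, and 3 without BAL17 brain 2.

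**Figure D3:**
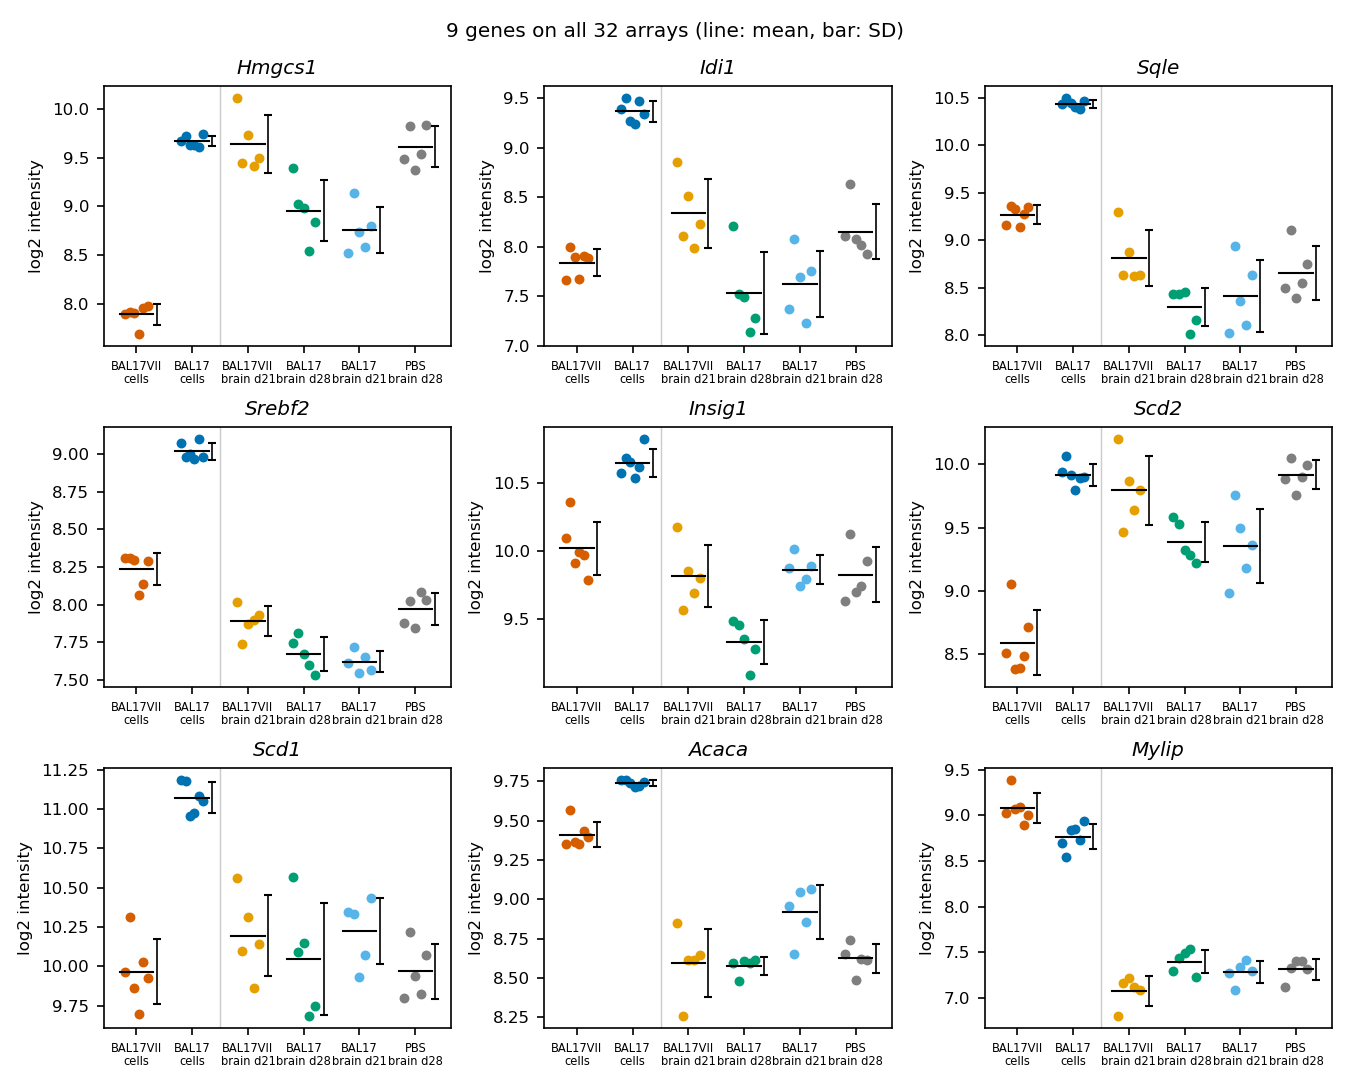
Log2 intensity of 9 genes on each of the 32 arrays, with the mean (line) and SD (bar) of each group. Hmgcs1, Idi1, Sqle, Srebf2, Insig1, Scd2 and Scd1 are lower in BAL17VII than in BAL17 cells on every array, Hmgcs1 and Srebf2 are higher in every BAL17VII brain than in every BAL17 brain at day 21, and Insig1 is lower in every BAL17 brain at day 28 than in every BAL17 brain at day 21.

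The difference between the brain and culture contrasts was tested directly, in a fit of all 32 arrays. The line difference in day 21 brains minus the line difference in culture was above 0 for 22 of 32 genes and below 0 for 1, Mylip (13166 genes tested). That is 68.8% and 3.12% of the members, against 14.3% and 10.9% of all genes tested. Median centring turned the 1881 genes called above and 1434 called below into 2382 and 1041, while the members stayed at 22 and 1. The median was 0.84 over the members and 0.03 over all genes. Without BAL17VII brain 1 the counts were again 22 and 1, with a median of 0.76 and with 2.55 for Hmgcs1, 2.11 for Idi1, 1.79 for Msmo1, 1.75 for Nsdhl, 1.66 for Scd2 and -0.45 for Mylip.

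Hmgcs1 had the largest value among the members, 2.67 ± 0.18 (adjusted p = 5.27e-13), from 0.89 in brains and -1.78 in culture. Idi1 followed with 2.24 ± 0.22 (0.71 in brains and -1.53 in culture), then Msmo1 with 1.91 ± 0.23 (0.70 and -1.21), Nsdhl with 1.81 ± 0.18 (0.63 and -1.19) and Scd2 with 1.76 ± 0.17 (0.44 and -1.32). For these 5 genes both contrasts were called, with opposite signs. Without BAL17VII brain 1 the brain contrasts of Msmo1 and Scd2 lost their calls (limma, adjusted p = 0.0544 and 0.0723). For Sqle (1.57 ± 0.19), Lss (1.12 ± 0.12), Scd1 (1.08 ± 0.18), Cyp51 (1.08 ± 0.15), Stard4 (0.87 ± 0.13), Fdps (0.86 ± 0.19), Insig1 (0.58 ± 0.14) and Fasn (0.44 ± 0.12) the culture contrast was called and the brain contrast was not. Srebf2 differed by 1.05 ± 0.09, with opposite called signs. Srebf1 (0.04 ± 0.09), Acaca (0.01 ± 0.11), Acly (0.30 ± 0.13) and Scap (0.15 ± 0.10) did not pass. Mylip was the reverse case, at -0.52 ± 0.12 (adjusted p = 0.00213), from -0.21 in brains and 0.31 in culture. Abca1 (-0.26 ± 0.14) and Abcg1 (-0.29 ± 0.12) had the same sign and did not pass; Abcg1 passed after quantile normalization (-0.30, adjusted p = 0.0441) and without BAL17VII line array 4 or 5 or BAL17 line array 3, and Abca1 without BAL17 brain 2 of day 21 (-0.35, adjusted p = 0.0417).

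Counted another way, of the 24 genes lower in culture 11 were called higher at day 21, 1 lower (Acaca) and 12 not called, and 19 had a positive difference. Of all 1433 genes lower in culture and tested at day 21, 13.4% were called higher and 14.5% lower at day 21, and 53.5% had a positive difference. The 11 were Hmgcs1, Idi1, Fdft1, Msmo1, Nsdhl, Hsd17b7, Sc5d, Dhcr7, Srebf2, Elovl6 and Scd2. Of these, Fdft1, Msmo1, Hsd17b7, Dhcr7 and Scd2 were not called at day 21 without BAL17VII brain 1 (limma, adjusted p = 0.0544 to 0.135). The others of the 11 stayed called as higher. The 2 genes higher in culture, Mylip and Abcg1, were not called at day 21.

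The implanted brains were also set against PBS brains. These comparisons share the PBS brains, so their values are given side by side only. No member was called in BAL17VII brains in either direction, although 3.37% of all genes were called higher and 1.64% lower; at an unadjusted p under 0.05 there were 0 higher and 3 lower (Stard4, Abca1 and Mylip). Without BAL17VII brain 1 none was called either, with 0 higher and 3 lower unadjusted, a median of -0.10, and 4.35% of all genes higher and 1.89% lower. In BAL17 brains at day 28, 16 members were lower (50%) and none higher, against 21.6% and 8.87% of all genes. In BAL17 brains at day 21, 14 were lower (43.8%) and 1 higher (3.12%), against 32% and 13.1% of all genes. The median over the members was -0.03 in BAL17VII brains (-0.03 over all genes), -0.30 in BAL17 brains at day 28 (-0.10) and -0.18 in BAL17 brains at day 21 (-0.11). The PBS brains were taken at day 28, so day and implantation cannot be told apart in the day 21 comparisons.

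Hmgcs1 read 9.39, 9.02, 8.98, 8.54 and 8.84 in BAL17 brains at day 28, against 9.49, 9.83, 9.37, 9.54 and 9.84 in PBS brains. BAL17 brain 1 alone reached the PBS range. Its difference from PBS was 0.03 ± 0.15 in BAL17VII brains (-0.09 without brain 1), -0.66 ± 0.15 in BAL17 brains at day 28 (adjusted p = 0.00321) and -0.86 ± 0.15 in BAL17 brains at day 21 (adjusted p = 0.000133, no overlap). Idi1 read 8.21, 7.52, 7.49, 7.14 and 7.28 in BAL17 brains at day 28, against 8.11, 8.63, 8.08, 8.01 and 7.93 in PBS brains. Again only BAL17 brain 1 lay within the PBS range. Idi1 differed by 0.18 ± 0.19 in BAL17VII brains (0.06 without brain 1), -0.62 ± 0.19 in BAL17 brains at day 28 and -0.53 ± 0.19 in BAL17 brains at day 21. Both called values of Idi1 lost their call without PBS brain 2, at -0.50 (adjusted p = 0.0672) for day 28 and -0.41 (adjusted p = 0.104) for day 21, and also without BAL17 brain 4 or 5 at day 28 (0.0616 and 0.052) and BAL17 brain 1 or 4 at day 21 (0.0795 and 0.0953).

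Msmo1 read 9.15, 8.95, 8.88, 8.45 and 8.52 in BAL17 brains at day 28, against 9.27, 9.71, 9.46, 9.04 and 9.64 in PBS brains. Only BAL17 brain 1 lay within the PBS range. It differed by 0.06 ± 0.20 in BAL17VII brains (-0.06 without brain 1), -0.63 ± 0.20 in BAL17 brains at day 28 (adjusted p = 0.0212) and -0.64 ± 0.20 in BAL17 brains at day 21 (adjusted p = 0.0129). The day 28 call was lost without BAL17 brain 4 (0.0627) or 5 (0.056), or PBS brain 2 (0.0606) or 5 (0.0525). Hsd17b7 read 7.87, 7.81, 7.54, 7.36 and 7.71 in BAL17 brains at day 28, against 8.15, 8.51, 7.98, 8.02 and 8.33 in PBS brains. Neither BAL17 group overlapped the PBS brains, with -0.54 ± 0.13 at day 28 (adjusted p = 0.00488) and -0.51 ± 0.13 at day 21 (adjusted p = 0.00378), beside -0.05 ± 0.13 in BAL17VII brains (-0.18 without brain 1).

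Scd2 read 9.58, 9.53, 9.32, 9.28 and 9.22 in BAL17 brains at day 28, against 9.88, 10.05, 9.75, 9.90 and 9.99 in PBS brains. The day 28 brains lay wholly below. Its differences were -0.12 ± 0.13 in BAL17VII brains (-0.22 without brain 1), -0.53 ± 0.13 in BAL17 brains at day 28 (adjusted p = 0.00517) and -0.56 ± 0.13 in BAL17 brains at day 21 (adjusted p = 0.00163). Srebf2 read 7.75, 7.81, 7.67, 7.60 and 7.53 in BAL17 brains at day 28, against 7.88, 8.02, 7.85, 8.08 and 8.03 in PBS brains. Both BAL17 groups lay wholly below, with differences of -0.30 ± 0.07 at day 28 and -0.35 ± 0.07 at day 21, beside -0.08 ± 0.07 in BAL17VII brains (-0.11 without brain 1). Nsdhl was lower at day 28 (-0.50 ± 0.14, adjusted p = 0.0132) and at day 21 (-0.46 ± 0.14, adjusted p = 0.013), and Ebp at day 21 (-0.50 ± 0.16, adjusted p = 0.0137), a call lost without BAL17 brain 4 (0.0506) or PBS brain 2 (0.0503).

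Sqle, Scd1, Fasn, Srebf1 and Abca1 were not called against PBS in any implanted group. Sqle read 8.43, 8.43, 8.45, 8.01 and 8.16 in BAL17 brains at day 28, against 8.49, 9.10, 8.39, 8.55 and 8.75 in PBS brains. Those ranges overlapped. Scd1 read 10.57, 10.09, 10.15, 9.68 and 9.75 in BAL17 brains at day 28, against 9.80, 10.22, 9.94, 9.83 and 10.07 in PBS brains. Its group means were above PBS in all 3 implanted groups, by 0.08 to 0.25, where Scd2 means were below. Fasn read 7.63, 7.65, 7.56, 7.58 and 7.76 in BAL17 brains at day 28, against 7.86, 7.88, 7.65, 7.94 and 7.80 in PBS brains. After median centring Fasn was called lower, at -0.25 at day 28 (adjusted p = 0.0494) and -0.26 at day 21 (0.0272). Srebf1 read 6.87, 7.09, 6.98, 6.98 and 7.08 in BAL17 brains at day 28, against 6.96, 6.91, 7.12, 7.09 and 7.09 in PBS brains, which overlapped. Abca1 read 7.37, 7.52, 7.42, 7.67 and 7.55 in BAL17 brains at day 28, against 7.68, 7.71, 7.57, 7.56 and 7.57 in PBS brains. All 5 BAL17VII brains, at 7.11 to 7.52, lay below the PBS brains for Abca1 (-0.25 ± 0.10, adjusted p = 0.127, and -0.26 with an adjusted p of 0.143 without BAL17VII brain 1).

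Acaca was the 1 member called higher against PBS, in BAL17 brains at day 21 (0.29 ± 0.09, adjusted p = 0.0148), a call lost after median centring (0.0798) and when its 2 probe sets were averaged (0.0636). In BAL17 brains at day 28 it read 8.60, 8.48, 8.61, 8.60 and 8.61, against 8.65, 8.74, 8.49, 8.62 and 8.62 in PBS brains. Those groups overlapped, with a difference of -0.05 ± 0.09.

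Between the BAL17 brains, day 28 set against day 21, 1 member was lower and none higher, against 0.493% and 1.01% of all genes; at an unadjusted p under 0.05 there were 5 lower and 0 higher. That gene was Insig1, which read 9.49, 9.46, 9.36, 9.09 and 9.28 at day 28, against 9.88, 10.02, 9.74, 9.80 and 9.89 at day 21. The groups did not overlap. The difference was -0.53 ± 0.11, a ratio of 0.69 (adjusted p = 0.0157), and the adjusted p was 0.0529 after median centring. At day 28 Insig1 also lay wholly below the PBS brains, which read 9.63, 10.13, 9.70, 9.75 and 9.93 (-0.49 ± 0.11, adjusted p = 0.00226), while at day 21 its difference from PBS was 0.04 ± 0.11. Acaca differed by -0.34 ± 0.09 without overlap and did not pass (adjusted p = 0.0725), but passed without BAL17 brain 2 of day 21 (0.0237). Hmgcs1 (0.20 ± 0.15), Idi1 (-0.10 ± 0.19), Msmo1 (0.01 ± 0.20), Scd2 (0.03 ± 0.13) and Srebf2 (0.05 ± 0.07) were not called.

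The levels of brain and lymphoma markers also differed between the groups of brains. At day 21, the B lineage mean was 6.05 to 7.45 in BAL17VII brains, 7.25 to 7.77 in BAL17 brains and 5.92 to 6.20 in PBS brains, and 7 of 9 tested B lineage genes were lower with BAL17VII than with BAL17. The myelin mean was 9.35 or more in BAL17VII brains, 8.59 to 9.36 in BAL17 brains and 9.40 to 9.83 in PBS brains, and 8 of 10 myelin genes were higher with BAL17VII. Astrocyte genes were higher for 7 of 10, neuron genes for 5 of 10 and microglia genes for 5 of 6, and division genes were lower for 6 of 9. Endothelial genes were higher for 3 of 6 and macrophage genes for 2 of 7. Over all genes tested, 17.3% were higher and 6.82% lower with BAL17VII than with BAL17. Of 6 measured pituitary genes only 2 passed the intensity filter, which the brains of a single group can satisfy. Both were higher, with a median difference of 5.27, a count that this filter can favour. The mean of 6 pituitary genes was 7.46, 9.52, 9.24, 5.61 and 8.98 in the 5 BAL17VII brains, 5.46 to 5.62 in BAL17 brains of day 21 and 5.65 to 6.75 in PBS brains. Every BAL17VII brain except brain 4 lay above all of these. Without BAL17VII brain 1 the counts were 3 of 10 B lineage and 4 of 9 division genes lower, and 7 of 10 myelin, 6 of 10 astrocyte, 5 of 10 neuron, 5 of 6 microglia, 2 of 6 endothelial, 2 of 7 macrophage and 2 of 2 pituitary genes higher. Of all genes tested, 10.3% were then higher and 4.35% lower. None of these genes was at 0, since the values hold no zeros. In culture the myelin mean was 6.14 to 6.40 in BAL17VII cells and 6.14 to 6.37 in BAL17 cells, and the astrocyte mean was 5.88 to 6.15 in BAL17VII cells and 5.81 to 6.16 in BAL17 cells.

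Within groups, the brain with the highest mean over the 11 sterol-step genes was also the brain with the highest myelin mean in 3 of 4 groups, and the one with the highest astrocyte mean in 3 of 4. For neuron genes this held in 2 of 4 groups, and for B lineage and division genes in 1 of 4 each. For myelin these were BAL17VII brain 1 (8.53), BAL17 brain 2 of day 21 (8.13) and PBS brain 2 (8.47). In the fourth group, BAL17 at day 28, brain 1 had the highest sterol mean (7.95) and also the highest B lineage and division means, and brain 2 the highest myelin mean. The part of these cell types in the day 21 difference was not tested.

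**Figure D4:**
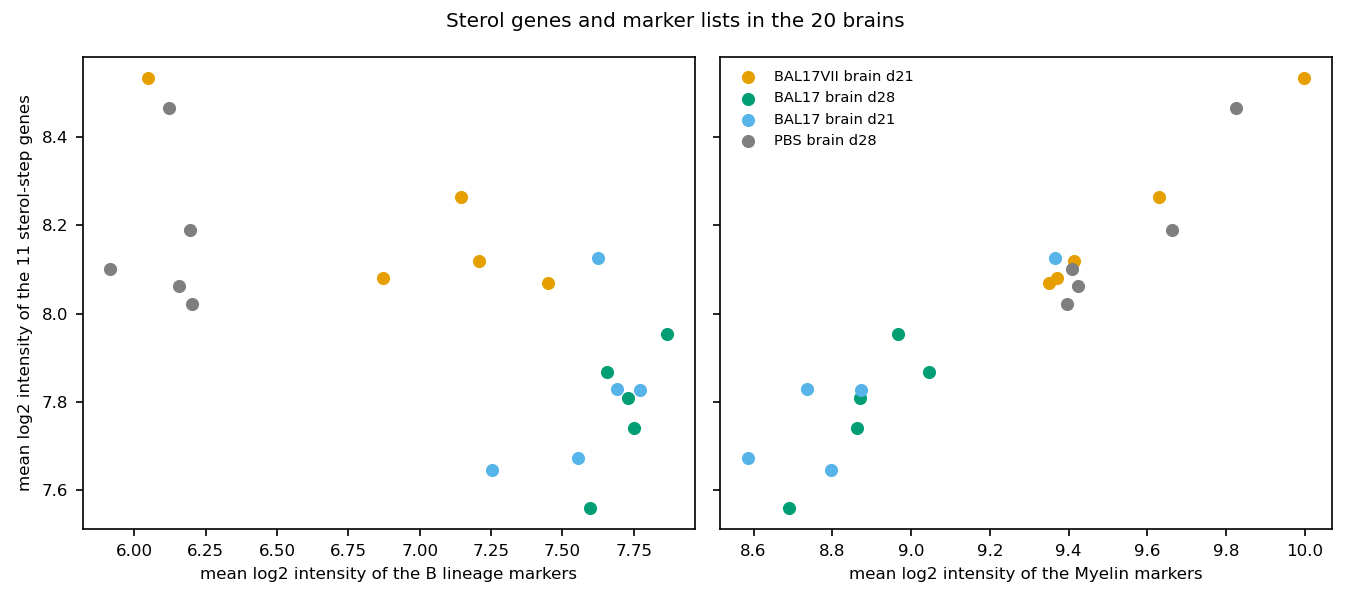
Mean log2 intensity of the 11 sterol-step genes in each of the 20 brains against the mean of the B lineage markers (left) and of the myelin markers (right). In 3 of 4 groups the brain with the highest sterol mean also has the highest myelin mean, with BAL17VII brain 1 at the top of the right panel (sterol mean 8.53) and at the PBS end of the left panel.

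Of 25 further genes of the same pathways, 18 were measured and the others were not analysed here. In culture 4 were higher and 3 lower of 14 tested (28.6% and 21.4%, against 17.3% and 14.5% of all genes). Acss2, which makes acetyl-CoA from acetate, was higher in BAL17VII cells (0.70 ± 0.09, adjusted p = 1.32e-05), as was Npc1, which exports cholesterol from lysosomes (0.60 ± 0.06). Fads2, a desaturase of polyunsaturated fatty acids, was lower (-0.63 ± 0.08). In day 21 brains 8 of 16 tested were higher in BAL17VII and none lower, against 17.3% and 6.82% of all genes. Me1, malic enzyme (0.64 ± 0.14, adjusted p = 0.00264), Fads2 (0.63 ± 0.14) and Fads1 (0.53 ± 0.11) led them. Without BAL17VII brain 1, 6 of 16 were higher and none lower, with 0.53 for Me1, 0.54 for Fads2 and 0.46 for Fads1, and Npc1 was no longer called (adjusted p = 0.0654). For Fads2 the brain minus culture difference was 1.26 ± 0.17 (adjusted p = 1.64e-06), and for Acss2 and Npc1, higher in BAL17VII in both places, it was -0.37 ± 0.13 and -0.31 ± 0.11. Over the list 6 such differences were above 0 and 2 below of 16 tested, against 14.3% and 10.9% of all genes, and without BAL17VII brain 1 they were 5 and 2 of 17. Against PBS, none of 16 was called in BAL17VII brains (2 higher and 2 lower at an unadjusted p under 0.05), 10 were lower and none higher in BAL17 brains at day 28 (21.6% of all genes lower), and 10 were lower and 1 higher (Elovl1, 0.41 ± 0.14) in BAL17 brains at day 21 (32% lower and 13.1% higher of all genes). Without BAL17VII brain 1, again none of 16 was called in BAL17VII brains against PBS, with 0 higher and 3 lower at an unadjusted p under 0.05. Between the BAL17 brains of day 28 and day 21 none was called, and none had an unadjusted p under 0.05.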

How the data were processed

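RNA of 12 line arrays and 20 brain arrays was measured on Affymetrix gene arrays. The deposited values are linear-scale intensities. Per the submitters' processing notes, the authors used RMA and the Affymetrix Expression Console software; versions, probe-set level and whether lines and brains were normalized together are not given in the sources used here. RMA subtracts background, matches array distributions and summarises probes, so a low intensity is no measured absence. The extraction entry (frozen section, Trizol) is the same for all samples, lines included, per the labels' protocols. No read depth applies, and the number of arrays limits the precision. The intensities ran from 2.72 to 17825, so log2 was taken. Of 35556 probe sets 21789 carried 1 symbol, 1621 several and 12146 none; 21698 matched the GRCm38.p6 gene table, used for names.

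Groups came from the titles and source names. limma 3.58.1 (R 4.3.3) fitted group means with empirical Bayes moderation to the 12 line arrays, the 20 brain arrays or all 32, two-sided, over genes whose intensity passed the array median on a number of arrays equal to the smallest group's size or more. All 32 members passed in each fit. P-values were Benjamini-Hochberg adjusted over all genes tested, and a gene was called under 0.05. Values per array were named for the 5 called members per direction with the largest difference and 10 fixed members, beside the 3 leading called genes of the further list; other members named with values were chosen after these were seen. The members, lists and tests were chosen with earlier results of these data known. The fits were tested on simulated data. Python 3.11.15 served for promoters and figures. Alternatives were quantile normalization, median centring, other intensity filters, averaged probe sets, robust trended moderation, a block on replicate number, fits of fewer or more arrays, and leaving out each array. Marker, further-gene and list means without BAL17VII brain 1 were added after seeing the data.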

Additional observations from a re-analysis of the deposited data

Results flagged for a closer look

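Among 192 sets of a gene and a group, 13 held an array that stood apart from the others of its group by Dixon's test at the 95% level, which chance gives in about 5% of sets. In the lines these were Hmgcs1 in BAL17VII array 4 (7.69), Acaca in BAL17VII array 2 (9.56), Fdps in BAL17 array 1 (8.92) and Dhcr7 in BAL17 array 4 (8.51). In BAL17VII brains they were Hsd17b7 (8.67) and Elovl6 (10.33) in brain 1 and Scap in brain 2 (8.59). In BAL17 brains at day 28 they were Pmvk in brain 4 (6.65) and Acaca in brain 2 (8.48), and at day 21 Fdps in brain 2 (8.87) and Lss in brain 5 (6.37). In PBS brains they were Idi1 (8.63) and Cyp51 (8.77), both in brain 2.

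The line difference in day 21 brains differed from that in culture, by the limma test of the difference over all 32 arrays, for 23 genes. The values, brain minus culture on the log2 scale, were 2.67 for Hmgcs1, 2.24 for Idi1, 1.91 for Msmo1, 1.81 for Nsdhl, 1.76 for Scd2, 1.57 for Sqle, 1.29 for Hsd17b7, 1.23 for Elovl6, 1.13 for Fdft1, 1.12 for Lss, 1.08 for Cyp51, 1.08 for Scd1 and 1.05 for Srebf2. They were 0.93 for Dhcr7, 0.87 for Stard4, 0.86 for Fdps, 0.81 for Ebp, 0.71 for Sc5d, 0.58 for Insig1, 0.47 for Mvd, 0.46 for Pmvk, 0.44 for Fasn and -0.52 for Mylip. For Ebp the brain contrast was called and the culture contrast was not.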

How the results depend on the processing

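No called gene changed its direction under any alternative run. Of 4396 values of a gene under an alternative, 97 missed the threshold that the main value passed, 28 passed where it had not, and 134 uncalled ones changed sign; the causes were not tested. The count lower in culture ran from 20 to 24 over the alternatives (22 to 24 with an array left out), that lower in BAL17 brains against PBS from 13 to 18 at day 28 (11 to 17) and from 11 to 15 at day 21 (10 to 15), and that of differences above 0 from 18 to 22 (22 each time). Small counts moved more. The count higher in culture was 1 with no filter or a filter at percentile 75, and 1 to 2 with an array left out. The count lower in BAL17VII brains at day 21 was 0 after median centring or with the 2 groups alone, 1 with the filter at percentile 75, and 0 to 3 with an array left out, where the count higher was 7 to 16. The count higher in BAL17 brains at day 21 against PBS was 0 after median centring or with the mean of probe sets. The count lower at day 28 against day 21 was 2 after quantile normalization or the filter at percentile 75, 0 after median centring, and 1 to 2 with an array left out. The count of differences below 0 was 2 after quantile normalization, and 1 to 2 with an array left out. Median centring moved the median of all genes by at most 0.07. Over all genes, fitting the 2 groups alone gave 1179 higher and 465 lower at day 21 between the lines, against 2069 and 816, and 114 higher and 14 lower in BAL17VII brains against PBS, against 403 and 196; median centring gave 536 lower at day 21 and the filter at percentile 75 gave 441. That filter, which tests fewer genes, gave 223 higher in BAL17VII brains against PBS, and in BAL17 brains against PBS 532 higher at day 28, against 1061, and 726 at day 21, against 1572. No filter gave 129 lower in BAL17VII brains against PBS. Day 28 against day 21, with 121 higher and 59 lower, gave 95 lower after quantile normalization, 66 higher and 35 lower after median centring, 78 higher with no filter, 91 lower with a replicate block, and 204 higher and 104 lower with the 2 groups alone.

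Whether replicate numbers pair the arrays was not settled. Deviations of same-numbered line arrays correlated at 0.01 to 0.18, and those of same-numbered brains at -0.32 to 0.48. Of 6 BAL17VII line arrays 3 correlated best with their own number, as did 1 or 2 of 5 brains in each comparison of brains. With a replicate block, 23 genes were lower and 2 higher in culture, and 11 higher and 3 lower at day 21; Srebf1 in culture (adjusted p = 0.0538), Dhcr7 at day 21 (0.0617) and Lss at day 28 against PBS (0.0549) lost their calls, and Mylip at day 21 and Scap at day 28 against PBS gained one.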
